A study of Mus musculus with 4 samples.

Results

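The Rab GTPases are the largest family of small GTP-binding proteins, and each member marks particular membranes of the cell. A Rab is loaded with GTP by an exchange factor, recruits effector proteins that move, tether or fuse a vesicle, and is switched off when a GTPase-activating protein makes it hydrolyse GTP; a lipid tail added by a geranylgeranyl transferase holds it in the membrane, and a dissociation inhibitor extracts it again. In neurons the Rab3 proteins sit on synaptic vesicles and Rab27 proteins on vesicles and granules ready for release, whereas Rab1, Rab2 and Rab6 serve the endoplasmic reticulum and the Golgi and Rab5, Rab7 and Rab11 the endosomes of nearly every cell. The genes described here are all those with a symbol made of Rab, a number and at most one letter from a to d and a further digit, read from array probe sets that the platform's probe table pairs with a single gene symbol. They are 59 of the 18194 genes represented on the array, with 132 probe sets between them, and each was represented by its probe set with the highest mean.

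Total RNA of wild-type mice, taken from the left hippocampus in full, was amplified, labelled with biotin and hybridised to 1 array per sample. The 4 samples carry the numbers 11, 13, 15 and 17 and all belong to the same group of biological replicates, so no condition was compared. Strain, age, sex and whether each sample is a separate animal are not stated in the labels. The p-values for levels therefore measure only the spread between these samples, which may be technical. Those of the test between samples rest on the disagreement of a gene's probe sets, and those of the spread test on the usual variance of probe sets. All levels are log2 intensities as deposited, and errors are SD over the 4 samples. Probes differ in how well they bind, so levels of different genes were not ranked, and the exocytosis Rabs were set beside the housekeeping Rabs by how many were detected, how much they varied and how they deviated in each sample. In RNA of a whole tissue, fewer cells of a type and less RNA per cell cannot be told apart.

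A gene was called above background where its level exceeded 6.40, the 95th percentile of the levels of 48 genes that hippocampus is not expected to express, such as those of sperm, liver and skin, at an adjusted p under 0.05 by limma. Neuronal markers passed in 12 of 12 cases, astrocyte markers in 7 of 8, myelin genes in 8 of 9, microglial markers in 5 of 8 and endothelial markers in 4 of 7. No choroid plexus marker of 8 and no blood cell marker of 6 passed by limma, and of the choroid plexus markers 7 were called below. The remaining one, the thyroxine carrier Ttr, was not decided, although it lay above the limit in every sample. It stood at 9.84 in sample 13 and between 6.54 and 7.36 in the others. The array read the 5' ends of transcripts less well in samples 15 and 17: the 3' minus 5' difference of Gapdh was 0.62 in samples 11 and 13, 2.64 in sample 15 and 3.79 in sample 17.

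Most Rab genes were detected. By limma with Benjamini-Hochberg adjustment over all genes, 43 of the 59 Rab genes were above background and 16 below it, while 43.0% of all genes were called above and 53.1% below. A call below background does not mean that no transcript was present. Closest to the limit lay Rab9b (6.55 ± 0.0059) and Rab3d (6.62 ± 0.13) above it, and Rab43 (5.97 ± 0.028) and Rab29 (5.94 ± 0.23) under it. The test took the limit as a fixed value, so the calls of such genes leave out the uncertainty of the limit itself. When each gene was given the median of its probe sets in place of the highest, 31 Rab genes were above. With the limit raised to the highest background gene, the lactase gene Lct at 7.84, the number was 28. Of the 48 background genes 2 were themselves called above, Lct and the skin gene Lor at 7.10, so 7.84 may not be a background level. The shares of all genes above under these settings were not computed.

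**Figure D1:**
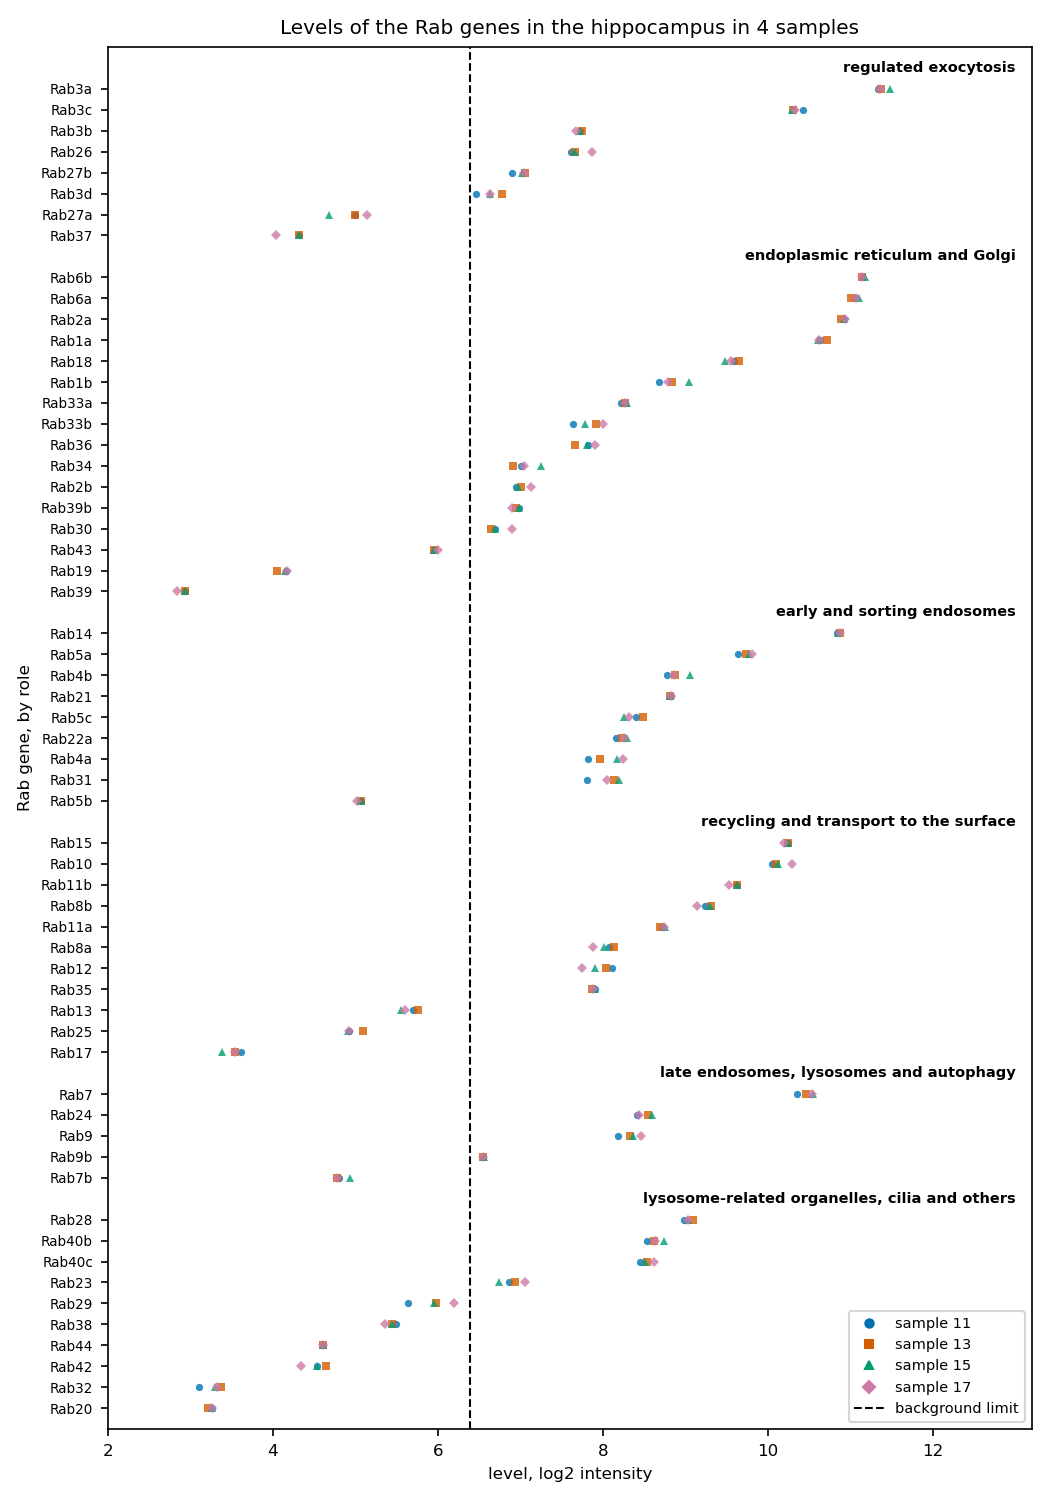
Level of each of the 59 Rab genes, in log2 intensity on the horizontal axis, grouped by role; each point is 1 sample, and the dashed line is the background limit of 6.40. The 4 points of a gene mostly lie within 0.3 of each other, and 16 genes lie left of the limit in every sample.

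Of the 6 Rabs of regulated exocytosis in the Rab3 and Rab27 branches, 5 were above background; 3 were with the median over probe sets and 2 with the limit at the highest background gene. Rab3a, the main Rab of synaptic vesicles, which binds the active zone protein RIM, had values of 11.34, 11.37, 11.48 and 11.36 in samples 11, 13, 15 and 17, a mean of 11.39 ± 0.066. Its second probe set gave 11.26, 11.26, 11.32 and 11.29 in the same order, so both were highest in sample 15 and the 4 samples spanned 1.11-fold by the brighter set. Rab3c, a close relative on synaptic vesicles, stood at 10.43, 10.31, 10.29 and 10.33 by its brightest probe set. This set was highest in sample 11, while the other samples lay within 0.05 of each other. Of the 5 probe sets of Rab3c 3 were above the limit, and the dimmer ones of these, at 6.64 and 6.55, were highest in sample 13.

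Rab3b, which some neurons use for vesicle replenishment, had values of 7.72, 7.75, 7.72 and 7.68, the smallest spread of the exocytosis list at an SD of 0.030. Rab3d, best known from secretory granules of exocrine cells, stood nearer the limit at 6.46, 6.77, 6.63 and 6.63, lowest in sample 11 and highest in sample 13. Its call was lost when sample 13, 15 or 17 was left out. Rab27b, which works with Rab3 in docking vesicles, had values of 6.90, 7.05, 7.02 and 7.04, with sample 11 below the other 3 samples.

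Rab27a, the Rab of melanosome transport and of cytotoxic granules, was the member called below background. Its brightest probe set had values of 5.003, 5.003, 4.69 and 5.14, and none of its 4 probe sets exceeded the limit. Of the further secretory Rabs, Rab26 of secretory granules and synaptic vesicles was above at 7.70 ± 0.11, and Rab37, known from mast cell granules, was below at 4.25 ± 0.14, equal in samples 11, 13 and 15.

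Of the 11 housekeeping Rabs 10 were above background. With the median over probe sets 8 were, and with the limit at the highest background gene 9. The list holds Rab1a, Rab1b, Rab2a, Rab2b, Rab5a, Rab5b, Rab5c, Rab6a, Rab7, Rab11a and Rab11b. It leaves out the paralogs Rab6b, called above at 11.15, and Rab7b, called below at 4.83. Rab1a, needed for transport from the endoplasmic reticulum to the Golgi, stood at 10.64, 10.72, 10.61 and 10.62 in samples 11, 13, 15 and 17, and its paralog Rab1b at 8.68, 8.84, 9.04 and 8.79. Rab1b had the widest spread of the list, with an SD of 0.15 and a 1.28-fold span from sample 11 to sample 15. Rab2a, which acts between the Golgi and the endoplasmic reticulum, had values of 10.92, 10.88, 10.92 and 10.93, and Rab2b, its paralog, 6.95, 7.01, 6.98 and 7.13. Rab1a was highest in sample 13, Rab1b in sample 15, and both Rab2 genes in sample 17.

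Rab6a, which directs transport within and from the Golgi, was measured at 11.05, 11.001, 11.10 and 11.07, a span of 1.07-fold. Rab5a, the master Rab of early endosomes, stood at 9.63, 9.73, 9.77 and 9.80, lowest in sample 11 and highest in sample 17. Rab5c, which shares its compartment, stood at 8.40, 8.48, 8.26 and 8.32 and was highest in sample 13. Rab5b was the one housekeeping member called below background, with values of 5.07, 5.07, 5.07 and 5.02 and its second probe set below the limit too.

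Rab7, which takes late endosomes to lysosomes, had values of 10.35, 10.47, 10.55 and 10.53, lowest in sample 11. Rab11a and Rab11b, the Rabs of the recycling endosome, stood at 8.71, 8.69, 8.76 and 8.74 and at 9.63, 9.62, 9.63 and 9.53. Rab11b was equal in samples 11 and 15 and lowest in sample 17.

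Detected members thus made up 83.3% of the exocytosis list, 90.9% of the housekeeping list and 95.5% of a wider list of 22 housekeeping Rabs. Of all genes 43.0% were above. The shares depend on the paralogs listed. The exocytosis list holds every Rab3 and Rab27 gene measured, while the list of 11 leaves out Rab6b and Rab7b. The members of the wider list are not named here. The first 2 lists lay further apart under both settings named above, at 3 of 6 against 8 of 11 and at 2 of 6 against 9 of 11. No test was made between the lists, and the shares of all genes above under both settings were not computed. The median SD over samples was 0.0661 for the 5 exocytosis members above the limit, within 0.030 to 0.13, and 0.0617 for the 10 housekeeping members, within 0.022 to 0.15. Without sample 11 the median SD was 0.0361 for the exocytosis and 0.0540 for the housekeeping members, and with the median over probe sets 0.0374 and 0.0978. Over all 43 Rab genes above the limit the median SD was 0.0729, and over all 8176 genes above it 0.0848.

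In each sample the lists deviated little from their own means. The 5 exocytosis members deviated on average by -0.044, 0.037, 0.014 and -0.0064 in samples 11, 13, 15 and 17, and the 10 housekeeping members by -0.041, 0.0075, 0.024 and 0.0089. All 43 Rab genes above the limit gave -0.047, 0.0081, 0.021 and 0.018, and all genes above it -0.053, -0.0008, 0.020 and 0.034, so sample 11 was lowest in each set. The exocytosis mean minus the housekeeping mean was -0.0037, 0.030, -0.011 and -0.015, a range of 0.0451 on the log2 scale. Sample 13 set that range, which was 0.0116 without it, and 0.101 with the median over probe sets. Myelin genes were also highest in sample 13, at a mean deviation of 0.43 against -0.23 in sample 11, while neuronal markers kept within -0.031 and 0.026; the part of this difference in tissue makeup was not tested.

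**Figure D2:**
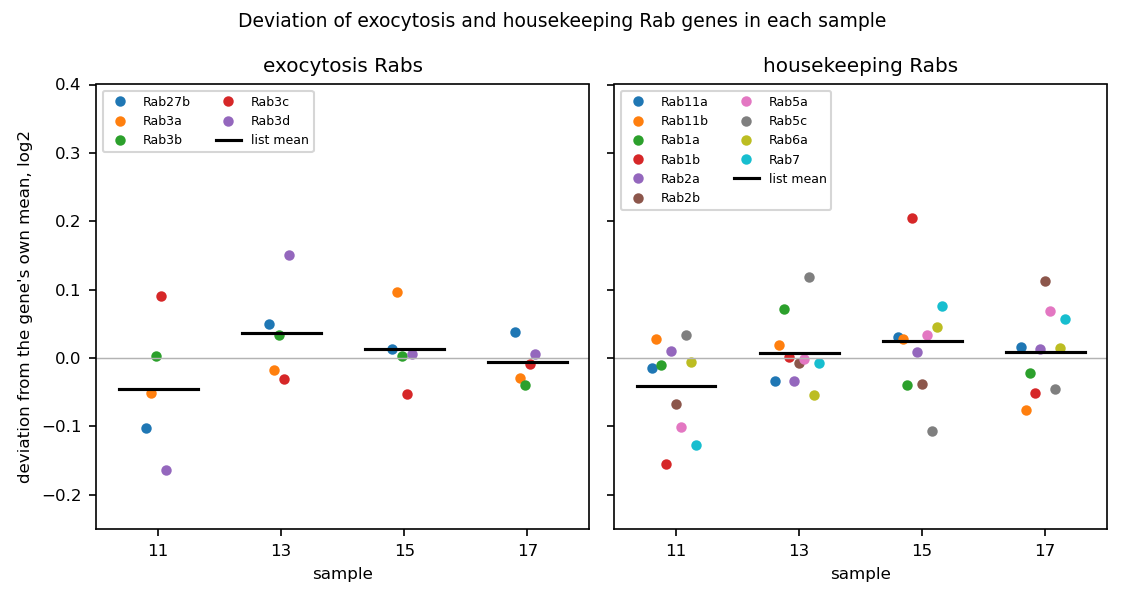
Deviation of each exocytosis Rab (left, 5 genes) and housekeeping Rab (right, 10 genes) above the limit from its own mean, in log2, by sample; points are genes and bars the list means. The list means lie between -0.044 and 0.037 for exocytosis and between -0.041 and 0.024 for housekeeping members, and single genes scatter around them by more than the lists differ.

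The sequence before the start of these genes was read from RefSeq on assembly GRCm38.p6, using 250 bases upstream of the most upstream start listed; 48 of the 59 Rab genes were matched, 5 of the exocytosis and 10 of the housekeeping list. The median number of CpG dinucleotides was 14 in the exocytosis list, from 6 in Rab3b to 18 in Rab3d, and 20.5 in the housekeeping list, from 9 in Rab11b to 24 in Rab6a, against a median of 6 over 27025 genes. The GC box GGGCGG, read on both strands, was in 7 of 10 housekeeping and 5 of 5 exocytosis members. It was in 68.8% of the matched Rab genes and 33.0% of all genes. The CCAAT box CCAAT was in 9 of 10 housekeeping and 2 of 5 exocytosis members, in 45.8% of the matched Rab genes and in 34.5% of all genes. The TATA box TATAAA was in Rab3b and Rab7 of these lists and in 13.0% of all genes, the E-box CACGTG in 6.04% and the cyclic AMP element TGACGTCA in 1.60% of all genes. The last 2 motifs both occur before Rab5a, and the GC box, the E-box and the cyclic AMP element each hold a CpG. A match was counted at any place in the window, also where a working TATA box would not lie. It is a description of the letters and not evidence of binding, and the lists were not tested against each other. The windows printed show the range: Rab3a of synaptic vesicles, Rab3b with a match to TATAAA and the fewest CpG dinucleotides of both lists, and Rab5a with 23 CpG dinucleotides. Capitals mark matches to the 5 motifs on either strand.
Rab3a, chr8:70754453-70754702, plus strand: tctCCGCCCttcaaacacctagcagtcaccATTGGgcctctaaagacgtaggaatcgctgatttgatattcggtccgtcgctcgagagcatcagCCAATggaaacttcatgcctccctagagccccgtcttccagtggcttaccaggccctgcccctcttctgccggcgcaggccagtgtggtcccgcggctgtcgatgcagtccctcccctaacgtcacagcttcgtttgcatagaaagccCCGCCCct
Rab3b, chr4:108878820-108879069, plus strand: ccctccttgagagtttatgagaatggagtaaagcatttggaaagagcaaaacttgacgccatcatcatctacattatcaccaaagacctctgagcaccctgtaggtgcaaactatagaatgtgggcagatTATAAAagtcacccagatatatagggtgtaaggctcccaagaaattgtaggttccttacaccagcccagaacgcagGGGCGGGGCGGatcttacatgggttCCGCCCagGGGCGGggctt
Rab5a, chr17:53478984-53479233, plus strand: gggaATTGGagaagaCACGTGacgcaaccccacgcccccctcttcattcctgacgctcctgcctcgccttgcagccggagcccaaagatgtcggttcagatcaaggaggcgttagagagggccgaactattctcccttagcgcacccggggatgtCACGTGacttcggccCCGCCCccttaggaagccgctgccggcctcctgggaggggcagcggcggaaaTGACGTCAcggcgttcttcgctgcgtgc

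**Figure D3:**
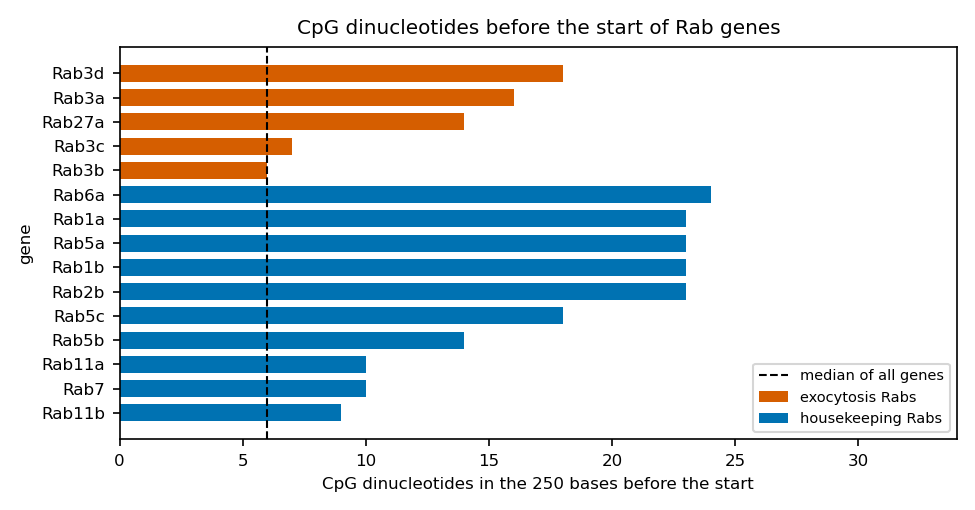
Number of CpG dinucleotides in the 250 bases before the start of each matched exocytosis (orange) and housekeeping (blue) Rab gene; the dashed line is the median of all 27025 genes, 6. Rab3b and Rab3c, at 6 and 7, lie at or just past that median, and the housekeeping members run from 9 to 24.

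Among the further Rabs of the endoplasmic reticulum and Golgi, most were detected. The role as a whole had 13 of 16 members above background, beside 43.0% of all genes. Rab6b, a neuron-enriched paralog of Rab6a, had a level of 11.15 ± 0.017, Rab18, which is also found on lipid droplets, of 9.57 ± 0.072, and Rab30 of 6.73 ± 0.12. Rab33a and Rab33b, the latter a Golgi Rab that binds the autophagy protein Atg16l1, stood at 8.26 ± 0.03 and 7.84 ± 0.16, Rab34 at 7.05 ± 0.14, Rab36 at 7.80 ± 0.1 and Rab39b, whose human counterpart is mutated in X-linked intellectual disability, at 6.96 ± 0.038. Rab19 (4.13 ± 0.058), Rab39 (2.91 ± 0.051) and Rab43 (5.97 ± 0.028) were below. With the limit at the 90th percentile of the background genes the calls of Rab43 and Rab29 as below were lost, and that of Rab29 also without sample 13 or 15.

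Early and sorting endosome Rabs were above background in 8 of 9 cases, beside 43.0% of all genes. Rab14 had a level of 10.86 ± 0.017, Rab21 of 8.82 ± 0.0093, Rab22a of 8.24 ± 0.055, Rab31 of 8.05 ± 0.17, and the fast recycling Rabs Rab4a and Rab4b of 8.05 ± 0.19 and 8.89 ± 0.12. Of the Rabs of recycling and transport to the surface 8 of 11 were above. Rab8a and Rab8b, which act in transport to the plasma membrane and cilium, stood at 8.03 ± 0.11 and 9.25 ± 0.079, Rab10, which brings membrane to growing axons, at 10.14 ± 0.11, Rab12 at 7.95 ± 0.16, Rab15 at 10.23 ± 0.024 and Rab35 at 7.89 ± 0.015. The epithelial members were under the limit: Rab13 of tight junctions stood at 5.65 ± 0.096, Rab17 at 3.52 ± 0.098 and Rab25 at 4.96 ± 0.088.

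The late endosome, lysosome and autophagy group had 4 of 5 members above background. Rab9, which returns receptors from late endosomes to the Golgi, had a level of 8.33 ± 0.12, Rab9b of 6.55 ± 0.0059 and Rab24, linked to autophagy, of 8.50 ± 0.086, while Rab7b was below at 4.83 ± 0.076. The remaining group, of lysosome-related organelles, cilia and others, had 4 of 10 members above, or 40.0%, the lowest share of the 6 roles. That share lay near the 43.0% of all genes called above. Rab28 (9.03 ± 0.045), Rab40b (8.63 ± 0.082), Rab40c (8.53 ± 0.071) and Rab23, an inhibitor of hedgehog signalling (6.90 ± 0.13), were detected. The melanosome Rabs Rab32 (3.28 ± 0.12) and Rab38 (5.43 ± 0.056) were below, as were Rab20 (3.25 ± 0.022), Rab29 (5.94 ± 0.23), Rab42 (4.51 ± 0.13) and Rab44, which had the same value of 4.61 in all 4 samples.

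Outside the exocytosis and housekeeping lists, the widest spreads above background belonged to 6 genes. Rab4a stood at 7.82, 7.97, 8.17 and 8.24 in samples 11, 13, 15 and 17, an SD of 0.19, and Rab31 at 7.81, 8.14, 8.20 and 8.05; both were lowest in sample 11. Rab33b stood at 7.64, 7.92, 7.78 and 8.004, also lowest in sample 11, and Rab34 at 7.01, 6.91, 7.25 and 7.04, highest in sample 15. Rab12 stood at 8.11, 8.04, 7.91 and 7.75, lower in samples 15 and 17, and Rab23 at 6.86, 6.93, 6.74 and 7.05, highest in sample 17. Of the 43 genes above the limit, 21 were lowest in sample 11, or 48.8%, against 47.3% of all genes above it, and 14 were highest in sample 15, or 32.6% against 27.4%. Sample 17 was highest in 12, or 27.9% against 38.9%.

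No Rab gene passed a test for differing between the samples. For genes with at least 2 probe sets above the limit, the differences between samples that the probe sets share were set against their disagreement, with variances moderated by limma. Of 18 Rab genes 0 passed at an adjusted p of 0.05, and 3 had an unadjusted p under 0.05; of all 2580 genes 20 passed, or 0.775%, and 19.7% had an unadjusted p under 0.05. The smallest adjusted p by this limma-moderated test was 0.102 for Rab4a, with mean deviations over its probe sets of -0.28, -0.014, 0.13 and 0.17 in samples 11, 13, 15 and 17. Rab34 followed, with an adjusted p of 0.105 and deviations of -0.080, -0.13, 0.20 and 0.0076, and then Rab2b with 0.230. A second test, for a spread wider than usual at a probe set's level, called 0 of 71 Rab probe sets and 0% of all 11871 by limma, with 3 and 344 at an unadjusted p under 0.05. With 2.21 prior degrees of freedom and 11871 probe sets, this second test could hardly reach an adjusted p under 0.05. Its lack of calls therefore carries little information. A missed threshold does not show that the samples were alike.

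The probe sets of one Rab gene often gave different signals. Of the 38 Rab genes with 2 or more probe sets, 22 had probe sets on both sides of the limit, or 57.9%, against 48.7% of the 9012 genes of the array with as many. The median gap between the highest and the lowest was 3.11 on the log2 scale, against 2.30 over those genes. Such a gap compares different probes and is no difference in transcript level. The probe set with the highest mean therefore gives the most favourable count of detected genes. Neither comparison with all genes was matched for level. A gene with no probe set above the limit cannot have probe sets on both sides of it. Of the 59 Rab genes 43 were called above background, against 43.0% of all genes. The part of level in both differences was not tested.

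**Figure D4:**
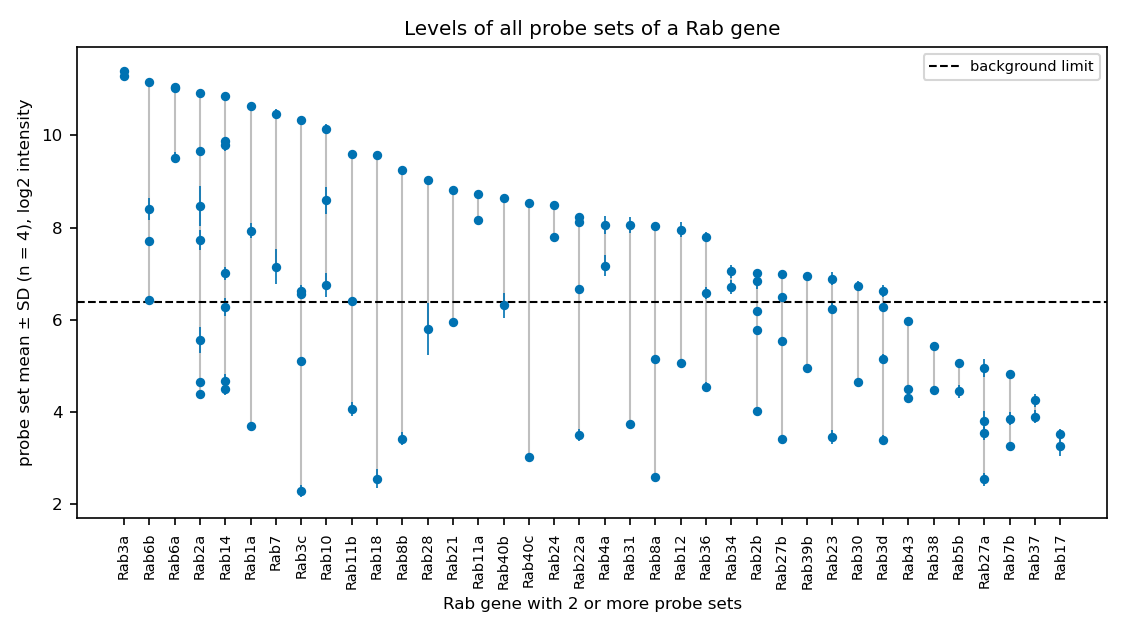
Mean ± SD (n = 4) in log2 intensity of every probe set of the 38 Rab genes with 2 or more, ordered by the highest; grey lines join the probe sets of a gene and the dashed line is the background limit of 6.40. In 22 genes the probe sets lie on both sides of the limit.

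Some of these probe sets also moved against each other between samples. The second probe set of Rab7 stood at 7.54, 7.40, 6.80 and 6.86 in samples 11, 13, 15 and 17, lower in samples 15 and 17, where the first was highest. The third of the Rab2a probe sets by level went 8.94, 8.69, 8.25 and 7.97, a span of 0.97 on the log2 scale, whereas the brightest probe set of that gene spanned 0.046. One of Rab10 went 8.84, 8.85, 8.40 and 8.28, while the brightest was highest in sample 17, as was the dimmest at 6.37, 6.86, 6.86 and 6.95. These are the 3 Rab probe sets with an unadjusted p under 0.05 for spread by limma, each with an adjusted p of 0.888.

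Values in both samples 15 and 17 were lower than in both samples 11 and 13 for 11 of the 71 Rab probe sets above the limit, or 15.5%, and higher for 21, or 29.6%. Over all probe sets above the limit the shares were 11.6% and 30.1%. Among the 28 Rab probe sets other than a gene's brightest, 6 were lower, or 21.4% against 20.9% of all such probe sets, and 10 were higher, or 35.7% against 24.8%. Among the 43 brightest 5 were lower, or 11.6% against 7.44%, and 11 were higher, or 25.6% against 32.5%. The median SD was 0.120 for the 28 and 0.0729 for the brightest, beside 0.101 and 0.0848 over all probe sets of each kind. Samples 15 and 17 had the larger 3' minus 5' difference of Gapdh. Its part in the shares of lower and of higher probe sets was not tested.

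**Figure D5:**
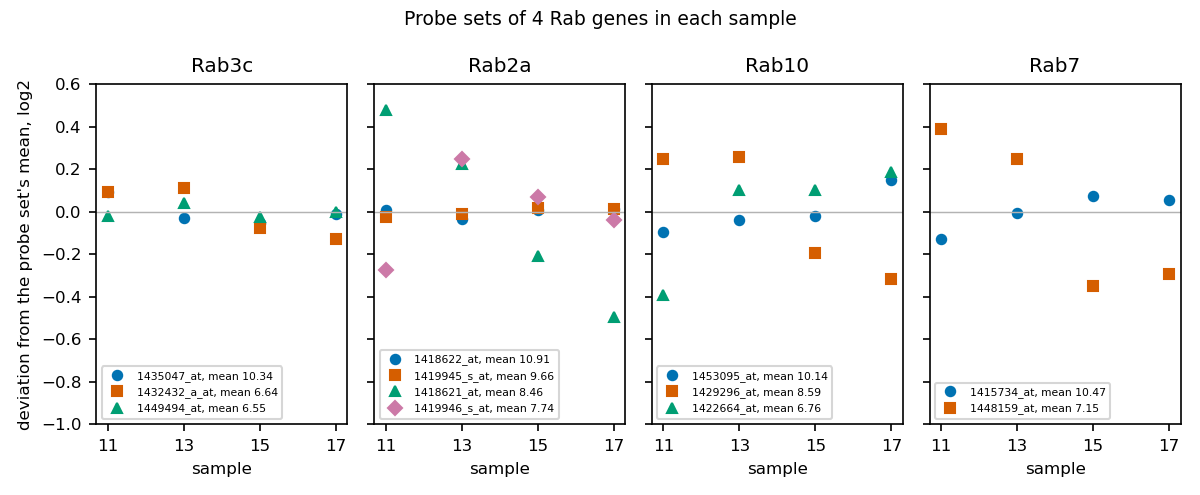
Deviation of each probe set above the limit of Rab3c, Rab2a, Rab10 and Rab7 from its own mean, in log2, by sample; each symbol is 1 probe set, with its mean level in the legend. One probe set each of Rab2a, Rab10 and Rab7 spans 0.57 to 0.97 and is lower in samples 15 and 17, and the dimmest of Rab10 spans 0.58 and is lowest in sample 11, while the brightest of the gene stays within 0.25.

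Genes that load, switch off, extract or read the Rabs were detected to a varying degree. Of 104 listed genes 97 were measured, 72 of them above background, 23 below and 2 not decided by limma, beside the 43.0% of all genes called above. Of exchange factors 19 of 26 were above. Rab3il1 was below, with 5.51 ± 0 and equal values in all 4 samples, whereas Rab3ip, an activator of Rab8, stood at 7.56 ± 0.048, Madd, which activates Rab3 and Rab27, at 9.30 ± 0.037 and Rabgef1, which activates Rab5, at 7.42 ± 0.051. Of the GTPase-activating proteins 17 of 21 were above, with both subunits of the Rab3 enzyme, Rab3gap1 and Rab3gap2, at 8.34 ± 0.095 and 7.004 ± 0.022, and Rabgap1 and Rabgap1l at 8.73 ± 0.053 and 9.28 ± 0.098.

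Genes of prenylation and extraction were above in 5 of 6 cases: the escort protein Chm had a level of 7.68 ± 0.098, and the subunits of the geranylgeranyl transferase, Rabggta and Rabggtb, of 7.28 ± 0.19 and 8.18 ± 0.099. The second escort protein, Chml, was below at 3.79 ± 0.16. Effectors of Rab3 and Rab27 were above in 6 of 12 cases, or 50%, near the 43.0% of all genes called above. The active zone proteins Rims1 and Rims2 stood at 9.34 ± 0.057 and 8.25 ± 0.036 and rabphilin, Rph3a, at 10.49 ± 0.16, which was lowest in sample 11 and highest in sample 17, a 1.28-fold span; Rph3al was below at 5.31 ± 0.035. Effectors of other Rabs were above in 25 of 32 cases, among them the early endosome tether Eea1 (7.10 ± 0.27), Appl1 (7.57 ± 0.07), Rbsn (7.79 ± 0.24) and Rabep2 (7.78 ± 0.14). Eea1 stood at 7.35, 7.04, 6.74 and 7.26 in samples 11, 13, 15 and 17, lowest in sample 15. None of the 24 regulators and effectors with several probe sets above the limit passed the limma-moderated test between samples, and 5 had an unadjusted p under 0.05.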

How the data were processed

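The values are log2 intensities per probe set of an Affymetrix array, produced with RMA by the authors per the submitters' processing notes; neither software nor settings are stated there. RMA corrects background, brings arrays to a common distribution and summarises probes, so differences shared by most genes are removed. Of 45101 probe sets 34958 had 1 gene symbol in the probe table, 932 several and 9211 none; 34754 of the first were matched to RefSeq (GRCm38.p6) for current symbols. RMA values can be equal in several samples: 24 of 59 Rab genes (40.7%, against 48.2% of all genes) had values equal to the last deposited digit in at least 2, which lowers their SD. The number of arrays limits the precision.

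The level of each gene was tested against the background limit with limma (intercept only, trended and robust eBayes, two-sided, Benjamini-Hochberg over 18194 genes, adjusted p under 0.05). The spread test took the residual over the prior variance as F, with 2.21 prior degrees of freedom. The test between samples took, for each gene with several probe sets above the limit, the mean square between samples over the mean square left between probe sets, moderated by squeezeVar; probe sets share RNA, labelling and scan, so it cannot tell biology from handling. The tests were tried on simulated data in which all unchanged probe sets shared the same SD, so the power of the spread test where variances differ was not tested. With 2.21 prior degrees of freedom and 11871 probe sets, the spread test could hardly reach an adjusted p under 0.05 in these data. Members, lists and tests were chosen with earlier results of these data known; 5 Rab genes are represented by probe sets (suffix _s_at or _x_at) that can bind related transcripts. All Rab genes are named; values in every sample are given for the exocytosis and housekeeping Rabs and for the 6 others above the limit with the largest SD, and the first 4 measured genes of each regulator list are named. Alternatives covered the limit, normalization, choice of probe sets, list, priors and each sample left out. Protein sequences were not used here. The work ran in R 4.3.3 with limma 3.58.1, and figures in Python 3.11.15 with matplotlib 3.10.9.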

Additional observations from a re-analysis of the deposited data

Results flagged for a closer look

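Among the 59 Rab genes, 12 had 1 sample far from the other 3 by Dixon's criterion at 95%, or 20.3%, against 23.9% of all 18194 genes. For independent values chance gives about 1 in 20. Sample 17 stood apart as the lowest for Rab11b at 9.53, Rab15 at 10.20, Rab37 at 4.04, Rab39 at 2.84 and Rab5b at 5.02 and as the highest for Rab30 at 6.90 and Rab43 at 6.01. Sample 13 stood apart as the lowest for Rab19 at 4.05, Rab20 at 3.21 and Rab2a at 10.88 and as the highest for Rab25 at 5.09, and sample 15 as the highest for Rab6b at 11.17 (log2 level in that sample). In 9 of the 12 genes at least 2 of the samples have values equal to the last deposited digit, which makes the remaining gap look large. Of genes with no equal values, 3 of 35 Rab genes (8.57%) and 4.72% of all such genes had a sample apart. The criterion was not met by the deviations of the exocytosis list, the housekeeping list, their difference or all Rab genes.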

How the results depend on the processing

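Of 79 named Rab genes and regulators followed over the settings, 821 level calls kept their side and their call, 11 kept the side without the call and 37 moved to the other side of the limit. With the limit at the highest background gene, levels minus the limit were Rab23 -0.95, Rab26 -0.14, Rab27b -0.84, Rab2b -0.83, Rab30 -1.11, Rab33b -0.0054, Rab34 -0.79, Rab36 -0.044, Rab39b -0.89, Rab3b -0.12, Rab3d -1.22, Rab9b -1.29, Rab3ip -0.28, Rabgef1 -0.43, Rab3gap2 -0.84, Chm -0.16, Rabggta -0.56, Eea1 -0.75, Appl1 -0.27, Rbsn -0.051 and Rabep2 -0.064. With the median over probe sets they were Rab18 -0.34, Rab23 -0.16, Rab27b -0.37, Rab2b -0.21, Rab30 -0.71, Rab31 -0.50, Rab39b -0.45, Rab3d -0.68, Rab40c -0.62, Rab8a -1.26, Rab8b -0.059, Rabgap1 -2.21, Rabgap1l -1.72, Appl1 -0.38 and Rabep2 -0.37. Without _s_at and _x_at probe sets the value of Rabep2 was -2.15. No level changed side under quantile normalization again, median centring, the 90th percentile limit, the plain prior or the omission of a sample. With the highest limit 28 Rab genes, 39 regulators and effectors and 2 exocytosis Rabs were above, and 3 further Rab probe sets were lower in samples 15 and 17; with the median over probe sets 31 Rab genes and 3 exocytosis Rabs were above. With a sample left out 42 to 43 Rab genes, 71 to 72 regulators, 4 to 5 exocytosis and 10 housekeeping Rabs were above. The range of exocytosis minus housekeeping was 0.0912 with the highest limit, 0.101 with the median over probe sets, 0.0879 with all measured members, 0.0753 with the median over members and 0.0116 to 0.0451 with a sample left out. The counts of 0 calls between samples and for spread stayed at 0 for Rab genes in every setting run. For spread this carries little information, as that test could hardly call any probe set. Calls between samples over all genes ranged from 2 without _s_at and _x_at probe sets to 73 with median centring, beside 20. The count of probe sets lower in samples 15 and 17, and its settings, were chosen after the data were seen. No paired analysis was possible because there is 1 group. For probe sets near the limit, signal over background limits how firmly a call holds.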

Other observations

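Among the regulators with several probe sets, the smallest adjusted p between samples by the limma-moderated test were 0.0539 for Fyco1, an effector of Rab7 in the transport of late endosomes and autophagosomes, and 0.0932 for Myo5b, a motor protein that binds Rab11; both were named after their values were seen. Fyco1 stood at 7.79, 7.47, 7.76 and 7.997 in samples 11, 13, 15 and 17, lowest in sample 13, and Myo5b at 8.28, 8.20, 8.59 and 8.64, higher in samples 15 and 17.

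Of all 132 Rab probe sets, the largest SD, 0.559, belonged to the second probe set of Rab28, which lay under the limit at 6.23, 6.23, 5.70 and 5.05 in samples 11, 13, 15 and 17. The first probe set of that gene stood at 8.98, 9.09, 9.03 and 9.03. Rab29 had the largest SD of the 59 genes by their brightest probe set, 0.23, with values of 5.64, 5.98, 5.95 and 6.19; it lay under the limit in all samples and was lowest in sample 11.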
